A study of Rattus norvegicus with 4 samples.

Results

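Nuclear genes for the mitochondrial respiratory chain and ATP synthase were examined in cultured heart cells on fibronectin. They were taken as every gene whose single symbol in the platform annotation begins with Nduf followed by a, b, c, s or v, with Uqcr, with Atp5, or with Cox followed by a digit from 4 to 8, or is Sdha, Sdhb, Sdhc, Sdhd, Cycs or Cyc1. This gave 85 of the 10411 genes named on the array, carried by 90 probe sets. Each gene was represented by the probe set with the highest mean over all 4 arrays. Of the 85, 75 encode subunits of complexes I to V, 5 are complex I assembly factors whose symbols begin with Ndufaf, and 5 are associated genes. The associated genes are Atp5if1, Cox7a2l, Ndufa4, Ndufa4l2 and Cox6c-ps1. A further 9 probe sets, among them those for Cycs, Atp5mc1, Atp5mc2, Cox7a2, Uqcrb, Ndufs5 and Ndufa10, carry more than 1 symbol and were left out by the rule, so cytochrome c itself was not analysed here.

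The cells were myocytes isolated from the ventricles of neonatal rats, contractile heart cells kept in primary culture. Fibronectin replicates 1 and 2 had been plated on dishes coated with fibronectin, a matrix glycoprotein bound by integrins, and control replicates 1 and 2 on uncoated dishes. Cells of both groups had 24 h with 10% serum and then 48 h without serum. The labels name no strain, genotype, exact age or number of animals. They do not say whether replicate arrays stand for independent cultures, so the spread behind each p-value may be technical. Defining myocyte markers were present: 14 of 14 listed genes were tested, with a summed normalized signal of 76675 and 82250 on fibronectin and of 78902 and 76089 on uncoated dishes.

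The respiratory chain carries electrons from NADH, through complex I, and from succinate, through complex II, to ubiquinone, then through complex III and cytochrome c to complex IV, which reduces oxygen. Complexes I, III and IV pump protons, and ATP synthase, complex V, uses the gradient to make ATP. Complex II is encoded by nuclear genes alone, whereas the other complexes also hold subunits encoded by mitochondrial DNA. The working heart depends on this pathway for most of its ATP.

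Arrays do not measure how many mitochondria a cell holds, and in bulk samples fewer cells of a type and less RNA per cell cannot be told apart. Signals are given as log2 of the quantile normalized intensity, in which 4.55 is the floor to which dim values were raised. Levels of different genes are not set against each other, since they come from different probe sets. A group was called free of overlap for a gene when both fibronectin arrays lay above, or both below, both control arrays.

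Many of these genes share promoter elements, so the RefSeq promoter windows of the GRCr8 assembly, from 250 bases before to 50 bases after the start site, were searched on both strands for 3 short motifs. Windows were found for 76 of the 85 genes. The motif GCGCATGC, the core of the sites bound by NRF1, occurred in 9 of the 76 (11.8%), against 2.47% of all 33469 windows. The motif CGGAAGT, the core bound by ETS factors such as GABP, occurred in 17 (22.4%), against 6.32% of all windows. The motif AAGATGGC, of the kind bound by YY1, occurred in 17 (22.4%), against 3.17%. At least 1 motif was found in 34 of the 76 windows, and 2 genes held the NRF1 and ETS motifs, 4 the NRF1 and YY1 motifs and 5 the ETS and YY1 motifs. Other forms were searched as well, and the 3 above were kept after their shares had been seen. A longer ETS form, CCGGAAGTG, occurred in 3 of the 76 windows (3.95%), against 1.89% of all windows, and TATAAA, a core promoter element, in 8 (10.5%), against 14.2%. Longer forms of the NRF1 and YY1 motifs were also searched and are not given here, so the shares printed are a selection and nothing is read from their size. These matches describe the letters of the windows and say nothing of binding. The median log2 difference between fibronectin and control arrays was 0.21 for genes with the NRF1 motif and 0.28 for those without it, 0.29 and 0.24 for the ETS motif, and 0.43 and 0.22 for the YY1 motif. For each motif the window of the tested gene with the highest difference is shown, as an example of these windows, with capitals marking that motif, which in Atp5po is read on both strands.

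Atp5po, the stalk subunit OSCP of ATP synthase, chr11:44657434-44657733 on the minus strand, NRF1-type motif beginning at base -59 from the start site: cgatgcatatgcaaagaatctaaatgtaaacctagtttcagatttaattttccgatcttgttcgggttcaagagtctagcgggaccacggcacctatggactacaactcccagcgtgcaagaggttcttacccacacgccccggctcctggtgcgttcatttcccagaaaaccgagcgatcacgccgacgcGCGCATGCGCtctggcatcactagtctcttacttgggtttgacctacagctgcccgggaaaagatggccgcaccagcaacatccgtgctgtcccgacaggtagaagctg
Uqcrq, a small subunit of complex III, chr10:38089929-38090228 on the minus strand, ETS-type motif beginning at base -21: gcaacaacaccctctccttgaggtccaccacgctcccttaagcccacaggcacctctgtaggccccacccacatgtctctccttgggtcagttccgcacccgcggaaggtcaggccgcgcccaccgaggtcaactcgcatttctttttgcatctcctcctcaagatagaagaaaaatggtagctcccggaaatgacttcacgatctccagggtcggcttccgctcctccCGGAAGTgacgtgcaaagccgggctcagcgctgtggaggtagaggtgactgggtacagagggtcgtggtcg
Ndufa2, an accessory subunit of complex I, chr18:28631835-28632134 on the minus strand, YY1-type motif beginning at base 27: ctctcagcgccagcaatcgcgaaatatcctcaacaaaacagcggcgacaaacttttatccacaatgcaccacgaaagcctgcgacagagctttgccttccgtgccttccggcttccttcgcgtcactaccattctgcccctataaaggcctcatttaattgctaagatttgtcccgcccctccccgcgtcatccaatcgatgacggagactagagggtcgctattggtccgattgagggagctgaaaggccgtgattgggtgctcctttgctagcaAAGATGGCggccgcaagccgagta

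The comparison asked how coating the dish with fibronectin was related to these transcripts. On the normalized scale 63 of the 85 genes had a higher mean on fibronectin and 22 a lower one, with a median log2 difference of 0.24, against -0.02 over all 9519 probe sets tested. Over the brightest tested probe set of each of 7101 genes the median was 0.02. No member passed limma's test after Benjamini-Hochberg adjustment over all probe sets, where 0.00% of probe sets were called on either scale, and the lowest adjusted p among members was 0.575. At an unadjusted p under 0.05 in limma, 12 members were higher and 2 lower, where 2.66% of all probe sets were higher and 3.81% lower. Both fibronectin arrays lay above both controls for 32 of the 85 genes, where this held for 19.3% of all probe sets tested, and below both for 8, where this held for 19.0%. With only the brightest tested probe set of each gene, these shares over all genes were 20.6% and 17.2%. Of the 85 genes, 81 passed the filter on dim probe sets. The 4 that did not, Cox4i2, Cox6b2, Cox7a1 and Ndufa4l2, are counted among the 85 and overlapped. An exact two-sided permutation test of a single value cannot go below p = 0.33 with 2 arrays a group.

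These transcripts are bright, and bright probe sets as a class behaved differently from dim ones on the deposited scale. Of the members, 68 had a mean log2 signal of at least 10, as did 734 of all tested probe sets. In that bright class the median difference over all probe sets was 0.06 on the normalized scale and 0.34 on the deposited scale. For the 68 bright members it was 0.22 and 0.56. Free of overlap and higher on fibronectin were 28 of the 68 bright members on the normalized scale, against 24.8% of bright probe sets, and 36 on the deposited scale, against 41.4%. Free of overlap and lower were 8 of the 68, against 18.5%, and 2 on the deposited scale, against 6.54%. Over all 85 members the deposited scale gave a median of 0.51, with 41 above both controls, against 20.6% of all probe sets, and 2 below both, against 12.5%. The median of the bright members differed more between the 2 scales than it differed from that of all bright probe sets on either scale.

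The arrays did not group by coating over the 9519 probe sets tested. There r between log2 signals was 0.792 between the fibronectin arrays, 0.910 between the controls and 0.775 to 0.904 between groups, with fibronectin replicate 2 standing apart. For the Gapdh control transcript the signal at the 3' end was 6.02 and 3.52 times that at the 5' end on fibronectin, against 1.64 and 1.15 times on control arrays, and for beta-actin 13.0 and 6.29 times, against 1.46 and 1.40. The part of these ratios in the results was not tested. Fibroblast markers were lower on fibronectin in 11 of 13 listed genes, 7 of them (53.8%) free of overlap, against 19.0% of all probe sets, and 0 free of overlap in the other direction, against 19.3%. On the deposited scale 9 were lower, with 4 below both controls, against 12.5% of all probe sets, and 1 above, against 20.6%. Their summed normalized signal was 22458 and 34285 on fibronectin, against 36428 and 53695 on control arrays, with no marker at the floor on all arrays, and their part was not tested either. Leukocyte markers summed to 1364 and 1896 on fibronectin and to 1949 and 2578 on controls, and neural markers to 745.6 and 1003 on fibronectin and to 549.6 and 353.9 on controls. Gene by gene, 5 of the 12 leukocyte markers had a higher mean and 7 a lower one, with 8 tested. For the 6 neural markers these counts were 5 and 1, with 3 tested. Endothelial, smooth muscle and erythroid markers had median differences of -0.00, -0.11 and 0.23.

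**Figure D1:**
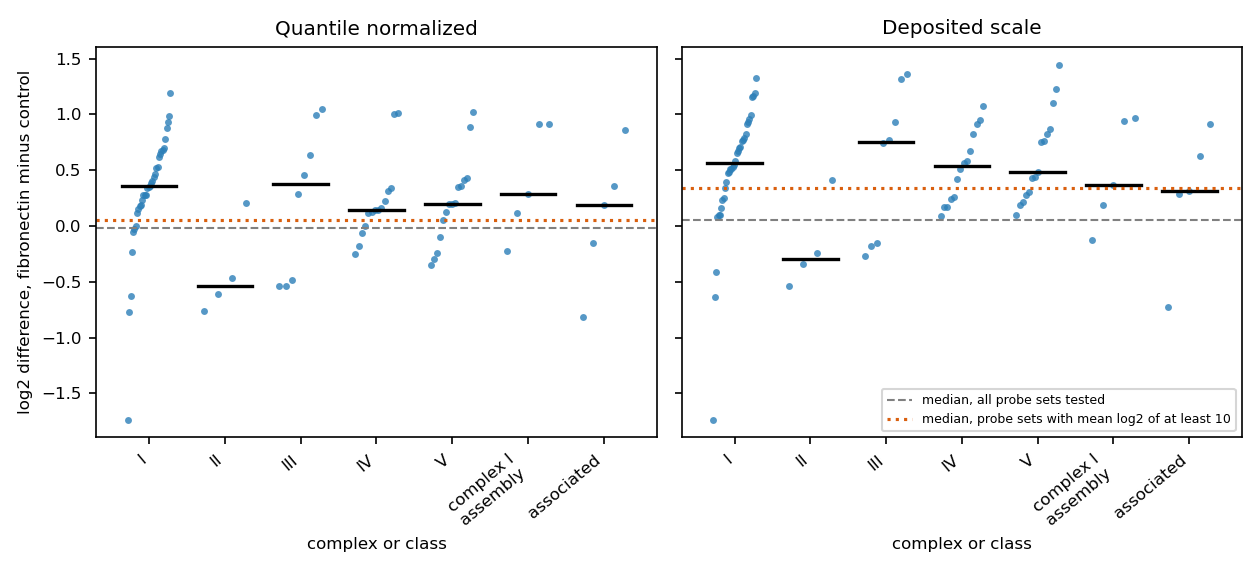
Log2 difference, fibronectin minus control, of each of the 85 genes by complex, on the normalized scale (left) and the deposited scale (right). Points are genes, black bars medians, the dashed line the median of all tested probe sets and the dotted line that of probe sets with a mean log2 of at least 10. The median of complex II lies below both lines, at -0.54 on the left and -0.29 on the right.

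Complex I, the NADH dehydrogenase, had the most members, 34, all tested. Means were higher on fibronectin for 28 and lower for 6, and both fibronectin arrays exceeded both controls for 18 (52.9%) and lay below both for 1 (2.94%), against 19.3% and 19.0% of all probe sets, or 24.8% and 18.5% of bright ones. The median difference was 0.36, against 0.06 for bright probe sets. On the deposited scale it was 0.57, against 0.34. There 17 (50%) lay above both controls, against 41.4% of bright probe sets, and 0 below both, against 6.54%. On the normalized scale differences ran from -1.74 to 1.20.

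Ndufa2, an accessory subunit whose window is printed above, had log2 signals of 11.08 and 10.54 on fibronectin replicates 1 and 2 and 9.79 and 9.44 on the controls. Both fibronectin values lay above both controls, a difference of 1.20 (SE 0.32), or 2.29-fold, with limma's Benjamini-Hochberg adjusted p = 0.603. Ndufc1, an accessory subunit of the membrane arm, measured 10.89 and 11.09 on fibronectin and 10.41 and 9.60 on the controls. Its difference was 0.99 (SE 0.34), and it ran from 0.59 without control replicate 2 to 1.42 without control replicate 1. Ndufb7 and Ndufb2, also accessory subunits of the membrane arm, differed by 0.93 (SE 0.27) and 0.88 (SE 0.26), and Ndufa7, an accessory subunit, by 0.78 (SE 0.26), each free of overlap.

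The 2 complex I subunits named for their high signal differed by less than these. Ndufb9, an accessory subunit, measured 12.80 and 12.64 on fibronectin and 12.60 and 12.03 on the controls, a difference of 0.40 (SE 0.28) with all fibronectin values above the controls. Ndufa1, an accessory subunit, measured 12.65 and 12.46 on fibronectin and 12.53 and 12.10 on the controls. Its groups overlapped, since fibronectin replicate 2 lay below control replicate 1, and it differed by 0.24 (SE 0.26).

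The core subunits, which hold the flavin and the iron-sulfur clusters, did not share one direction. Ndufv2, an iron-sulfur subunit of the module that oxidises NADH, measured 10.73 and 10.51 on fibronectin and 11.26 and 11.25 on the controls. It was the 1 subunit of complex I below both controls, by -0.63 (SE 0.26), 1.55-fold lower, with limma's Benjamini-Hochberg adjusted p = 0.754. On the deposited scale its difference was -0.41 and its groups overlapped. Ndufs1, the largest iron-sulfur subunit, differed by -0.77 (SE 0.49), with overlap, and Ndufv1, which binds NADH and flavin, by 0.00 (SE 0.28). Ndufs3, Ndufs7 and Ndufs8, of the part that passes electrons to ubiquinone, were above both controls with differences of 0.34 (SE 0.29), 0.68 (SE 0.34) and 0.65 (SE 0.33). These were 3 of the 6 core subunits (50%), against 19.3% of all probe sets and 24.8% of bright ones. On the deposited scale Ndufs7 overlapped too, which left 2 of the 6 (33.3%) above both controls, against 41.4% of bright probe sets.

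Of the 28 accessory subunits 24 had a higher mean. Above both controls lay 15 (53.6%), against 19.3% of all probe sets and 24.8% of bright ones, and 0 below both, against 19.0% and 18.5%. On the deposited scale the counts were again 15 and 0, against 41.4% and 6.54% of bright probe sets. Among the accessory subunits the lowest value was that of Ndufb8, of the membrane arm, chosen for mention after its values were seen. Its log2 signals were 7.97 and 5.02 on fibronectin and 8.50 and 7.97 on the controls, so that fibronectin replicate 2 alone was far below the rest and near the floor. Its difference of -1.74 (SE 0.86) became -0.27 when fibronectin replicate 2 was left out. It was -3.12 when fibronectin replicate 1 was left out instead, and there it was the 1 member past the threshold, with limma's Benjamini-Hochberg adjusted p = 0.0175. That fit sets 1 fibronectin array against both controls, and 459 of the 9519 probe sets (4.82%) passed in it.

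The 5 complex I assembly factors, which help to build the complex but are not part of it, were all tested. Ndufaf7, a methyltransferase, and Ndufaf8 each differed by 0.92 (SE 0.41 and 0.38) without overlap. Ndufaf3, Ndufaf4 and Ndufaf5 differed by 0.12, 0.29 and -0.22, with overlap.

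**Figure D2:**
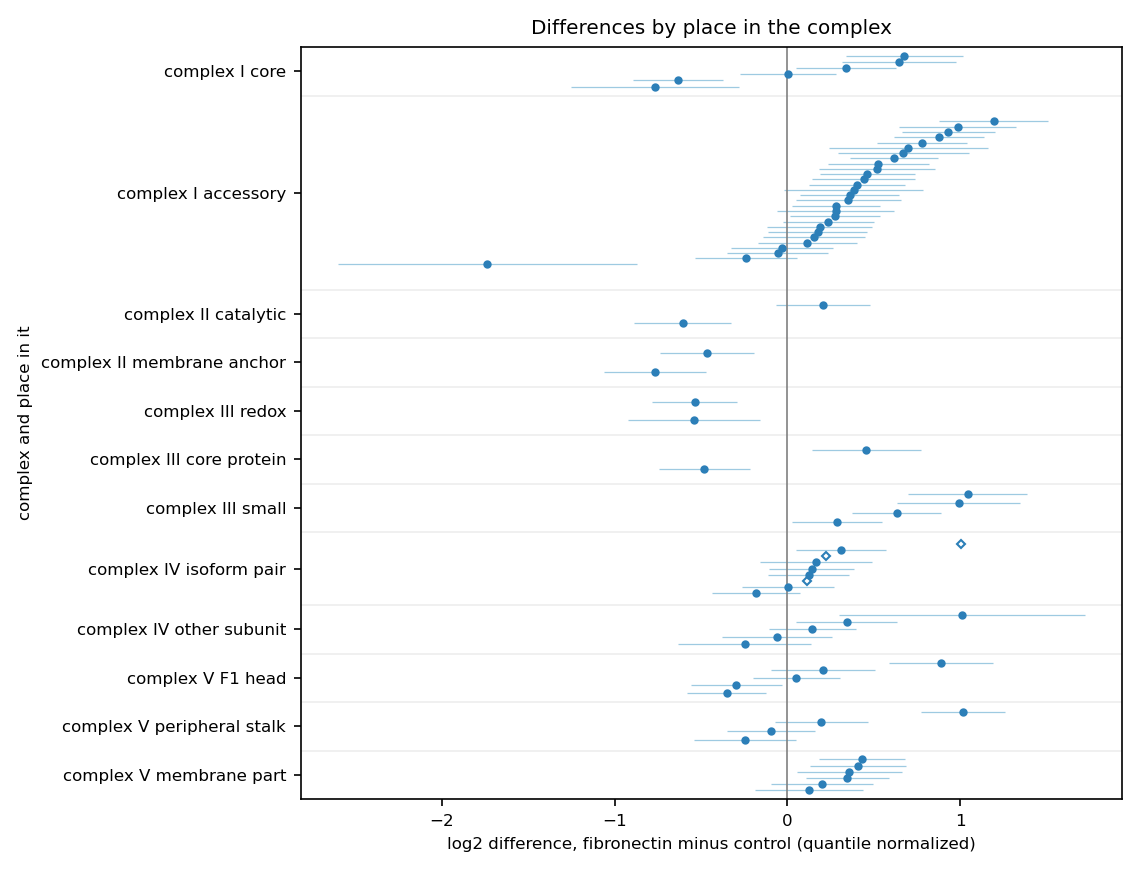
Log2 difference, fibronectin minus control, on the normalized scale for the 75 subunits by their place in each complex. Filled points are genes with limma's standard error as a bar, and open diamonds are the 3 genes left out of the test as dim. The 4 small subunits of complex III lie between 0.29 and 1.05, and the anchors of complex II lie at -0.47 and -0.76.

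Complex II, succinate dehydrogenase, which also serves the citric acid cycle, had 4 members, 3 of them lower and 1 higher on fibronectin, all free of overlap. Of all probe sets tested 19.0% lay below both controls and 19.3% above, and of bright ones 18.5% and 24.8%. Sdha, the flavoprotein that oxidises succinate, measured 10.38 and 10.83 on fibronectin and 11.20 and 11.22 on the controls, a difference of -0.61 (SE 0.28). Sdhc, a membrane anchor, measured 10.15 and 10.66 on fibronectin and 11.29 and 11.04 on the controls, a difference of -0.76 (SE 0.29), 1.70-fold lower. Neither passed limma's test, with Benjamini-Hochberg adjusted p = 0.762 and 0.750.

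Sdhd, the other membrane anchor, measured 10.84 and 10.60 on fibronectin and 11.34 and 11.03 on the controls, a difference of -0.47 (SE 0.27), and its dimmer probe set differed by -0.27 (SE 0.32). Sdhb, the iron-sulfur subunit, was above both controls by a small margin, at 10.60 and 10.84 on fibronectin and 10.58 and 10.44 on the controls, a difference of 0.21 (SE 0.27). With 1 array left out the median of the 4 genes ran from -0.62 to -0.46, and on the deposited scale it was -0.29. There Sdha and Sdhc still lay below both controls, with differences of -0.34 and -0.54, and Sdhd at -0.24 overlapped. Of all probe sets 12.5% lay below both controls on that scale.

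**Figure D3:**
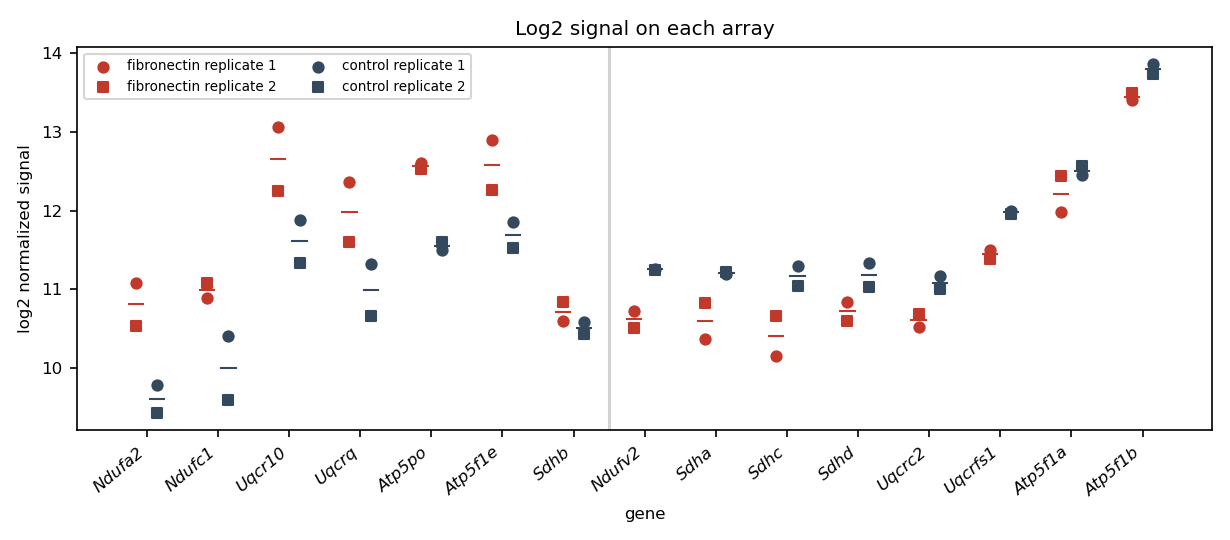
Log2 normalized signal on each array for the genes of complexes I, III and V with the largest differences without overlap in each direction and for the 4 genes of complex II. Symbols are arrays and short lines are group means. Left of the vertical line both fibronectin values lie above both controls, as for Atp5po at 12.60 and 12.53 against 11.50 and 11.60. Right of it both lie below.

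Complex III, ubiquinol-cytochrome c reductase, had 8 members, 5 with a higher mean and 3 with a lower one. Their grouping by place in the complex was made after the values were seen and was not tested. The small subunits Uqcr10, Uqcr11, Uqcrh and Uqcrq all had higher means, with 3 of the 4 above both controls and a median difference of 0.81. Of all probe sets tested 19.3% lay above both controls, and of bright ones 24.8%. Uqcr10 measured 13.06 and 12.25 on fibronectin and 11.88 and 11.34 on the controls, a difference of 1.05 (SE 0.35), or 2.06-fold. Uqcrq, whose window is printed above, measured 12.37 and 11.60 on fibronectin and 11.33 and 10.66 on the controls, a difference of 0.99 (SE 0.36). For both genes the difference was smallest without fibronectin replicate 1, at 0.61 and 0.62, and largest without control replicate 1, at 1.38 each.

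Uqcr11 differed by 0.63 (SE 0.26) without overlap. Uqcrh, the hinge protein that binds near cytochrome c1, measured 12.68 and 12.33 on fibronectin and 12.34 and 12.09 on the controls. It differed by 0.29 (SE 0.26), and fibronectin replicate 2 lay just below control replicate 1.

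The 2 subunits measured here that carry redox centres had lower means. Uqcrfs1, the Rieske iron-sulfur protein, measured 11.50 and 11.39 on fibronectin and 12.00 and 11.96 on the controls, a difference of -0.54 (SE 0.25) without overlap. Cyc1, cytochrome c1, measured 10.86 and 11.89 on fibronectin and 11.66 and 12.17 on the controls. Its groups overlapped, its difference was -0.54 (SE 0.38), and it was -0.01 without fibronectin replicate 1. On the deposited scale the differences were -0.18 for Uqcrfs1 and -0.15 for Cyc1, both with overlap.

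The 2 core proteins, which face the mitochondrial matrix, went opposite ways. Uqcrc2 measured 10.53 and 10.69 on fibronectin and 11.17 and 11.01 on the controls, a difference of -0.48 (SE 0.26) without overlap, or -0.27 on the deposited scale, where it overlapped. Uqcrc1 differed by 0.46 (SE 0.32), with overlap. None of the 8 genes passed limma's test, the lowest Benjamini-Hochberg adjusted p being 0.718.

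Complex IV, cytochrome c oxidase, had 14 members, of which 11 were tested. Its median difference, 0.14, was the nearest to 0 among the 5 complexes, with 3 genes (21.4%) above both controls, near the 19.3% of all probe sets, and 0 below, against 19.0%. The median became -0.03 without control replicate 2, and it was -0.01 with fibronectin replicate 1 left out and 0.54 on the deposited scale.

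Several of its subunits exist as isoforms of different tissues, and both isoforms were measured for 4 subunits. Cox4i1, the common form of subunit 4, measured 13.28 and 12.82 on fibronectin and 12.69 and 12.79 on the controls, a difference of 0.31 (SE 0.26). Fibronectin replicate 2 lay only just above the controls. Cox4i2, its form in lung and hypoxic cells, measured 6.53 and 4.55 on fibronectin and 6.30 and 4.55 on the controls, so that 1 array of each group was at the floor.

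Cox6a2, the heart and muscle form of subunit 6A, measured 12.73 and 12.75 on fibronectin and 12.57 and 12.67 on the controls, a difference of 0.12 (SE 0.23). Cox6a1, the form of other tissues, measured 11.99 and 11.85 on fibronectin and 11.82 and 11.74 on the controls, a difference of 0.14 (SE 0.24). On the normalized scale both isoforms were thus slightly above both controls, by less than their standard errors. On the deposited scale Cox6a2 differed by 0.67 (SE 0.22) and Cox6a1 by 0.51 (SE 0.29), where the median of bright probe sets was 0.34.

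Cox8b, the heart and muscle form of subunit 8, measured 10.77 and 10.72 on fibronectin and 10.87 and 10.62 on the controls, a difference of 0.00 (SE 0.27). Cox8a, the ubiquitous form, measured 12.68 and 12.80 on fibronectin and 13.11 and 12.73 on the controls, a difference of -0.18 (SE 0.25) that was 0.42 on the deposited scale. Cox6b1, the somatic form of subunit 6B, measured 12.17 and 11.67 on fibronectin and 12.10 and 11.41 on the controls, a difference of 0.17 (SE 0.32). Its testis form Cox6b2 was at the floor on all arrays but fibronectin replicate 1, where it read little above it.

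Cox7a1, the heart and muscle form of subunit 7A, was dim, at 7.30 and 4.71 on fibronectin and 4.57 and 5.42 on the controls. Fibronectin replicate 1 alone was high, and without it the difference was -0.30. Cox7a2l, a factor that joins complexes III and IV, measured 12.03 and 10.92 on fibronectin and 11.31 and 10.91 on the controls, a difference of 0.36 (SE 0.39) with overlap. Cox6c, another subunit, measured 13.43 and 12.97 on fibronectin and 13.13 and 12.58 on the controls, a difference of 0.34 (SE 0.29) with overlap.

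Of the rest, Cox5b, Cox7b and Cox7c differed by 0.15, -0.25 and -0.06. Cox5a had a large difference of 1.01 (SE 0.71) that rested on control replicate 2, at 7.17 against 9.18 to 9.65 on the other arrays. Without that array it was -0.22. Ndufa4, first assigned to complex I and since found with complex IV, differed by -0.15 (SE 0.34). Its paralogue Ndufa4l2 was at the floor on control replicate 1 and read 6.24 and 6.29 on fibronectin and 6.26 on control replicate 2. Cox6c-ps1, annotated as a pseudogene of Cox6c, differed by -0.82 (SE 0.54), with overlap, and is uncertain because near-identical copies of a gene cannot be told apart from these signals.

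Complex V, the ATP synthase, had 15 members, all tested, of which 11 had a higher mean. Above both controls lay 5 (33.3%), against 19.3% of all probe sets and 24.8% of bright ones, and below both lay 2 (13.3%), against 19.0% and 18.5%. The median difference was 0.20, or 0.49 on the deposited scale, where all 15 had a higher mean. On that scale 540 of the 734 bright probe sets had a higher mean too, with a median of 0.34. Atp5po, which joins the stalk to the catalytic head, measured 12.60 and 12.53 on fibronectin and 11.50 and 11.60 on the controls. The values within each group lay close together, and the difference was 1.02 (SE 0.24), 2.03-fold, with limma's Benjamini-Hochberg adjusted p = 0.575, the lowest of all members. It ran from 0.98 to 1.08 with 1 array left out, and was 1.45 on the deposited scale. Atp5f1e, the small epsilon subunit of the head, measured 12.89 and 12.26 on fibronectin and 11.86 and 11.52 on the controls, a difference of 0.89 (SE 0.30), or 0.54 without fibronectin replicate 1.

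The catalytic beta subunit and its partner alpha went the other way on the normalized scale. Atp5f1b, beta, measured 13.40 and 13.49 on fibronectin and 13.86 and 13.74 on the controls, a difference of -0.35 (SE 0.23). Atp5f1a, alpha, measured 11.99 and 12.44 on fibronectin and 12.45 and 12.57 on the controls, a difference of -0.29 (SE 0.26). For both the direction depended on the scale: on the deposited scale they lay above both controls, by 0.43 and 0.22. Atp5f1c and Atp5f1d, gamma and delta, differed by 0.05 and 0.21, with overlap.

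The 6 genes of the membrane part all had higher means, from 0.13 to 0.43. Above both controls lay 3 of them, against 19.3% of all probe sets and 24.8% of bright ones. Atp5mc3, which encodes the proton-carrying c subunit, measured 13.25 and 13.35 on fibronectin and 13.19 and 12.59 on the controls, a difference of 0.41 (SE 0.28), or 0.11 without control replicate 2. Atp5mf and Atp5mk, small membrane subunits, differed by 0.43 (SE 0.25) and 0.35 (SE 0.24) without overlap. The other stalk subunits Atp5pb, Atp5pd and Atp5pf differed by -0.24, 0.20 and -0.09, with overlap. Atp5if1, the inhibitor that blocks ATP hydrolysis by the synthase, differed by 0.19 (SE 0.32), with overlap, and its other 2 probe sets had higher means too. Of the 4 genes with more than 1 probe set, Atp5if1, Atp5me and Ndufv3 were higher and Sdhd lower in every probe set. But the dimmest probe set of Atp5if1 and the dimmer ones of Atp5me and Ndufv3 failed the filter on dim probe sets. They lay near the floor, so nothing is read from their sign.

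**Figure D4:**
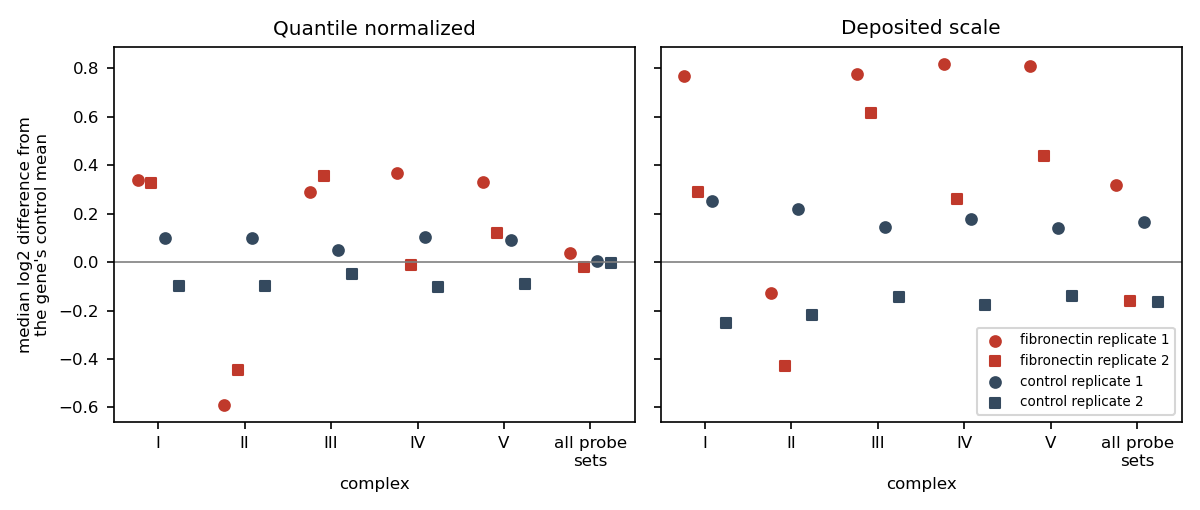
Median over the genes of each complex of the log2 difference from the gene's control mean, on each array, for the normalized scale (left) and the deposited scale (right), with all tested probe sets beside them. On the left, complex I stood at 0.34 and 0.33 on fibronectin replicates 1 and 2 and at 0.10 and -0.10 on the controls, and complex II at -0.59 and -0.44 on fibronectin. Complex IV on fibronectin replicate 2 lay between the controls, at -0.01. The control values mirror each other around 0 by construction, since the control mean is taken from the same arrays.

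Other mitochondrial lists gave a setting for these values. Of 71 mitochondrial ribosomal protein genes 55 had a higher mean on fibronectin, and the median difference over the 71 was 0.34. Above both controls lay 33 (46.5%), against 19.3% of all probe sets, and below both 5 (7.04%), against 19.0%. Of 22 genes for protein import 13 had a higher mean, with a median of 0.16, and of 35 assembly factors for the complexes 19, with a median of 0.07.

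The list of 13 genes for inner membrane carriers and porins also held Ckmt2, a mitochondrial creatine kinase. Of the 13 genes 9 had a lower mean, with a median of -0.21. Below both controls lay 5 (38.5%), against 19.0% of all probe sets, and above both 1 (7.69%), against 19.3%. The direction depended on the scale: on the deposited scale 9 had a higher mean, 4 lay above both controls and 1 below, and the median was 0.08. There 20.6% of all probe sets lay above both controls and 12.5% below, and 41.4% and 6.54% of bright ones. Slc25a3, the phosphate carrier that supplies ATP synthase, measured 13.11 and 13.13 on fibronectin and 13.61 and 13.23 on the controls, a difference of -0.30 (SE 0.25). Slc25a4, the heart form of the ADP/ATP carrier, measured 12.79 and 12.66 on fibronectin and 13.15 and 12.98 on the controls, a difference of -0.34 (SE 0.24). Slc25a5, another form of that carrier, measured 11.48 and 11.81 on fibronectin and 11.96 and 11.97 on the controls, a difference of -0.32 (SE 0.26). All 3 lay below both controls on the normalized scale, but on the deposited scale they differed by 0.40, 0.26 and 0.04.

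Of 11 regulators of mitochondrial biogenesis 8 were tested, 3 had a higher mean and 6 a lower one, and the median over the list was -0.21. Ppargc1a, the coactivator PGC-1 alpha, and Ppara, named after their values were seen, were at the floor on all 4 arrays. Esrra, an orphan nuclear receptor that drives oxidative genes, measured 7.74 and 8.14 on fibronectin and 7.02 and 7.23 on the controls, a difference of 0.81 (SE 0.40) without overlap. Polg, the mitochondrial DNA polymerase, differed by -0.21 (SE 0.48), and Gabpb1, a subunit of the ETS factor GABP, by -0.71 (SE 0.57), both with overlap. The list also held larger differences in the other direction, named here after their values were seen. Tfam, the packaging and transcription factor of mitochondrial DNA, measured 8.01 and 5.16 on fibronectin and 8.18 and 7.95 on the controls, a difference of -1.49 (SE 0.84) with overlap, fibronectin replicate 2 alone being low. Creb1, a cAMP-responsive transcription factor, measured 6.63 and 6.18 on fibronectin and 7.29 and 7.94 on the controls, a difference of -1.21 (SE 0.49) without overlap. In limma, 0 genes of these 5 lists passed, and their lowest Benjamini-Hochberg adjusted p was 0.603.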

How the data were processed

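The deposited table held 1 linear signal intensity per probe set for each of 4 arrays, made by the authors in ways not stated in these sources. The 15875 probe sets were quantile normalized, 9 Affymetrix control probe sets were left out, values below 23.4, the 20th percentile, were set to it as a floor, and log2 was taken. The 40% of probe sets with the lowest mean, 6347, were left out, and 9519 were tested in R 4.3.3 with limma 3.58.1 (lmFit, then eBayes with a trend on intensity), two-sided, with Benjamini-Hochberg adjustment over all of them and a threshold of 0.05. Probe sets of 1 symbol in the platform annotation were named. Errors are moderated standard errors, and for arrays their number, 2 per group, limits the precision.

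Values on every array are given for members past the threshold, for the 2 with the highest mean and up to 2 with the largest difference without overlap in each direction in complexes I, III, IV and V, for all of complex II and Cyc1, and for tissue isoforms, 31 genes in all. Ndufb8 and Ndufa4l2 were added after their values were seen. Others are given by counts, ranges or their difference. The members and lists were chosen with earlier results of these data known, and the places within complexes, the class of bright probe sets and the motif forms shown after values were seen. Alternatives were the deposited scale, a shift to the same median, other filters, no floor, an offset of 50, no intensity trend, a replicate block, 1 array left out with the rest normalized again, the mean over a gene's probe sets and a threshold of 0.10. Replicate numbers pair no samples by the labels.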

Additional observations from a re-analysis of the deposited data

How the results depend on the processing

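The 31 genes chosen for values on every array kept the sign of their difference in 22 cases under the 8 settings that change the values themselves (the deposited scale, a median shift, no floor, an offset, and each array left out), and the cause of the changes below was not tested. On the deposited scale the members' median was 0.51 and with arrays shifted to the same median 0.47, with 2 and 5 genes below both controls, and there Atp5f1a (0.22 and 0.17), Atp5f1b (0.43 and 0.38) and Cox8a (0.42 and 0.37) turned positive. Without a floor and with an offset, the dim Cox4i2 (-0.23 and -0.018) and Cox6b2 (-0.95 and -0.060) turned negative. With 1 array left out the members' median ran from 0.14 to 0.32, that of complex IV from -0.028 to 0.36, and the genes above both controls from 39 to 56 and below both from 11 to 20. In those fits 31.3% to 39.6% of all probe sets lay above and 29.3% to 40.6% below, against 45.9% to 65.9% and 12.9% to 23.5% of members. Differences changed sign in those fits for Cox4i2 (-0.87 to 1.05), Cox6b1 (-0.18 to 0.53), Cox7a1 (-0.30 to 2.26), Cox7a2l (-0.19 to 0.88), Cox8a (-0.38 to 0.013) and Cox8b (-0.12 to 0.12). Probe sets past the threshold, 0 in all with 616 at an unadjusted p under 0.05, ran from 0 to 459 there, with 459 without fibronectin replicate 1, and members from 0 to 1, where the lone array is assumed to vary like the other group. With the replicate number as a block, 234 probe sets and 8 members passed limma's adjusted threshold, Ndufa2, Ndufb2, Ndufb7, Ndufc1, Uqcr10, Uqcrq, Atp5po and Atp5f1e, all higher on fibronectin. Same-numbered arrays deviated together with r = 0.271 over 9519 probe sets, but with 2 pairs and no label behind the numbers this does not pair the samples. With the numbers crossed, a fit added after the data were seen, 1 probe set passed. Cox4i2, Cox6b2, Cox7a1 and Ndufa4l2 lay too near the floor for their differences to be measured.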
